A study of Bos taurus with 2 samples.

Results

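Calpain 1 and its inhibitor calpastatin are described here by the transcripts of their genes, CAPN1 and CAST, in the longissimus muscle of Qinchuan beef cattle before birth and in adult life. The members were 2 of the 16174 genes listed in at least 1 of the tables. They were taken by identifier, ENSBTAG00000010230 for CAPN1 and ENSBTAG00000000874 for CAST, and kept because the listed gene model was at least 1800 nt long. The models of 2255 nt for CAPN1 and 4550 nt for CAST both met that minimum, as did 52.7% of all genes, so the check is a weak one. The names were given together with the identifiers when the genes were chosen. No table used here pairs identifiers with names, and beyond the length the pairing was not tested.

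The Emb135 library was made from embryos at 135 days after insemination and the 30M library from adults at 30 months after birth. Each was prepared from a single RNA pool of 3 animals. Messenger RNA of the muscle was sequenced without a stated strand mark, giving 17.7 M uniquely assigned reads for Emb135 and 19.97 M for 30M (M stands for 1000000). No allele, treatment or other difference between the groups is stated in the labels. Each stage is thus 1 library with no replicate, no test between stages was possible, and no p-value is given. The intervals below are 95% intervals that cover counting error of independent reads only, with variation between animals and between library preparations left out. Markers of muscle fibres and of other cells were not analysed here, because their identifiers could not be matched to names, so the labelled tissue was not checked.

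Calpain 1, or µ-calpain, is a calcium-activated cysteine protease of the cytoplasm. Its catalytic subunit is encoded by CAPN1 and pairs with a small regulatory subunit. Calpastatin is the inhibitor specific to the conventional calpains, calpain 1 and calpain 2. It is an unstructured protein with repeated inhibitory domains, each able to bind a calpain molecule when calcium is present. In muscle the calpains cleave proteins that anchor and link the myofibrils, such as titin, nebulin and desmin. The pair is known in beef for its part in the softening of meat after slaughter, and variants of both genes are used as tenderness markers. Transcript levels do not measure protein, calcium or enzyme activity.

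CAPN1 transcript was the more abundant of the pair per length in the embryonic library and the less abundant in the adult one. CAPN1 was at an RPKM (reads per kilobase of gene model per M unique reads) of 65.6 in the embryonic library and 31.2 in the adult one. CAST was at 56.8 in Emb135 and 52.4 in 30M. The level of the protease transcript thus differed 2.11-fold between the libraries as deposited, while that of the inhibitor differed 1.08-fold. In these bulk samples, fewer cells that make a transcript and less of it per cell cannot be told apart.

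For CAPN1, the protease, 2625 reads were assigned in Emb135 and 1404 in 30M. That is 148 reads per M in Emb135, or 0.0148% of the library (exact Clopper-Pearson interval 0.0142 to 0.0154%). In 30M it is 70.3 reads per M, or 0.00703% (0.00667 to 0.00741%). The adult value is the lower. How many of all genes differ by more than such counting intervals was not counted. By RPKM, CAPN1 ranked 1155th among the genes of Emb135 and 1923rd among those of 30M. Of the genes with an RPKM of 1 or more, 9.52% were above it in Emb135 and 17.0% in 30M. The ranks do not depend on any scaling between the libraries, while the percentages do through the minimum RPKM. CAPN1 stood lower in the adult order.

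For CAST, the inhibitor, 4581 reads were assigned in Emb135 and 4762 in 30M. That is 258 reads per M, or 0.0258% of the library (0.0251 to 0.0266%), in Emb135. In 30M it is 238 reads per M, or 0.0238% (0.0232 to 0.0245%). The inhibitor's share was slightly smaller in the adult library as deposited. By RPKM, CAST ranked 1353rd in Emb135 and 1241st in 30M. Of the genes with an RPKM of 1 or more, 11.2% were above it in Emb135 and 11.0% in 30M. CAST therefore held nearly the same place in the order of genes at both stages, and CAPN1 passed from above it to below it. Both genes were well above the middle of the libraries, where the median RPKM of genes at 1 or more was 9.83 in Emb135 and 7.86 in 30M. A single read was worth an RPKM of 0.0250 for CAPN1 and 0.0124 for CAST in Emb135, and 0.0222 and 0.0110 in 30M, so that depth limits neither level.

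**Figure D1:**
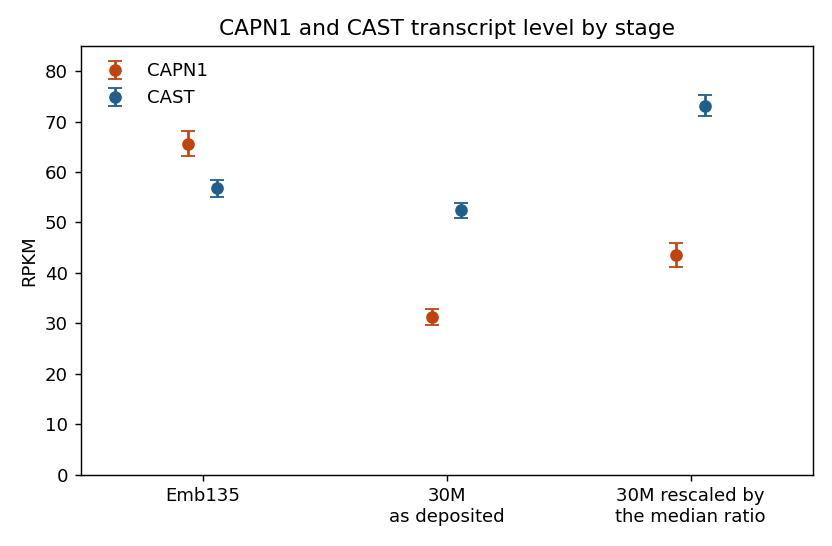
RPKM of CAPN1 and CAST (vertical axis, linear from 0) in the Emb135 library, in the 30M library as deposited and in the 30M library rescaled by the median ratio; points are single pooled libraries and bars are exact 95% Poisson intervals of the reads. CAPN1 lies above CAST in Emb135 (65.6 against 56.8) and below it in 30M on either scale (31.2 against 52.4 as deposited, 43.5 against 73.1 rescaled).

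The difference between stages was measured as the log2 ratio of RPKM + 0.5, 30M over Emb135. A gene was called by size, when this ratio reached 2-fold, its RPKM was at least 1 in the higher library and the counting interval of the ratio of read shares excluded equality. As deposited, CAPN1 had a log2 ratio of -1.06 and was called lower in 30M. Its ratio of read shares was 2.11-fold in favour of Emb135, with an interval of 1.97- to 2.25-fold, so the call rests on a value close to the 2-fold limit, which lies inside the interval. CAST had a log2 ratio of -0.11, with an interval of the log2 share ratio of -0.17 to -0.056, and was called neither higher nor lower. Among the 12763 genes compared, 45.7% were called in either direction, 32.6% as lower in 30M and 13% as higher. A lower call on this scale was thus common, and that for CAPN1 is not particular to it.

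The RPKM of a gene also depends on how much of its library other genes take, so the 30M values were rescaled by a factor of 1.40, which sets to equality the median ratio over genes whose RPKM reached 1 at both stages. On the rescaled values CAPN1 was at 65.6 in Emb135 and 43.5 in 30M, a log2 ratio of -0.59 and a 1.51-fold ratio of shares in favour of Emb135 (1.41- to 1.61-fold). CAPN1 was then no longer called. CAST was at 56.8 in Emb135 and 73.1 in 30M, a log2 ratio of 0.36 and a 1.29-fold ratio of shares in favour of 30M (1.24- to 1.34-fold). It was not called either, but it lay on the other side of equality. After rescaling, 40.9% of the 12932 genes compared were called, 21% as lower and 20% as higher.

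The direction for CAPN1 was the same under the 5 scalings tried beside the deposited one, and its call was not. The factors on 30M ran from 1.08 for TPM (which makes the length-scaled values of each library add up to the same sum) to 1.47 for the trimmed mean of log ratios. The log2 ratio of CAPN1 ran from -0.95 to -0.52 over these scalings, short of 2-fold in each. A factor of 2.11, larger than any of them, would be needed to bring CAPN1 to equality. The sign for CAST depended on the scaling: its log2 ratio was -0.11 as deposited and -0.0052 with TPM, but 0.26 to 0.43 with the other 4 scalings. A factor of 1.08 was enough to bring CAST to equality. CAST stayed within 2-fold of equality under all of the scalings tried.

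**Figure D2:**
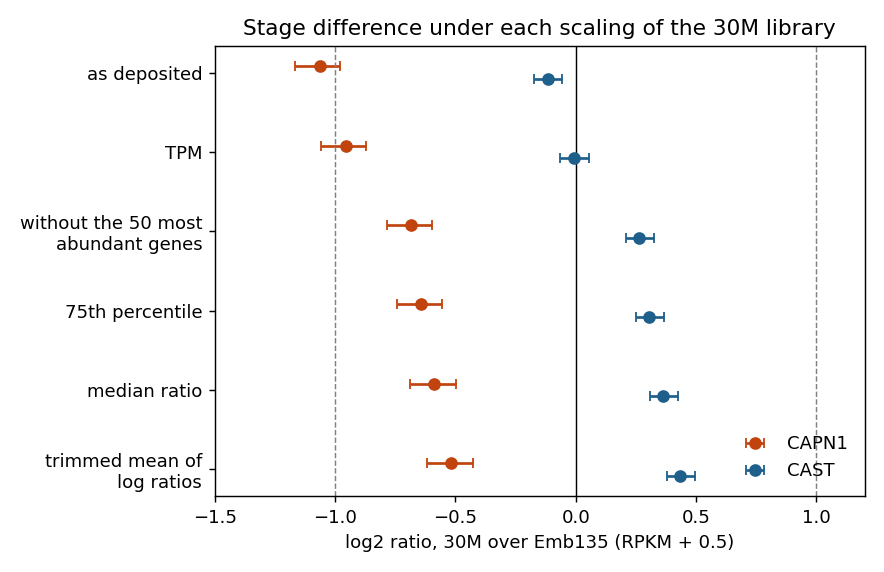
Log2 ratio of RPKM + 0.5, 30M over Emb135 (horizontal axis), for CAPN1 and CAST under the deposited scale and 5 scalings of the 30M library (rows); bars are exact 95% counting intervals of the log2 ratio of read shares, the solid line marks equality and dashed lines mark 2-fold. CAPN1 lies left of equality in all 6 rows and past 2-fold only as deposited, while CAST is at -0.11 as deposited, -0.0052 with TPM and 0.26 to 0.43 in the other rows.

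The 2 genes lay on opposite sides of the middle of all genes. As deposited the median log2 ratio of the 12763 genes was -0.53, with the middle 50% of genes between -1.25 and 0.28. CAPN1 differed from that median by -0.53 and CAST by 0.41, so each was inside the range of the middle genes. Ordered by log2 ratio, 3907 genes were below CAPN1, 4299 lay between CAPN1 and CAST, and 4555 were above CAST. About 33.7% of the genes compared thus fell between the protease and the inhibitor. After rescaling, 31.9% of genes were below CAPN1 and 64.5% below CAST, against 30.6% and 64.3% as deposited. This near equality is by construction: a factor on all 30M values shifts the log2 ratios alike, apart from the pseudocount and the genes that the minimum RPKM lets in.

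**Figure D3:**
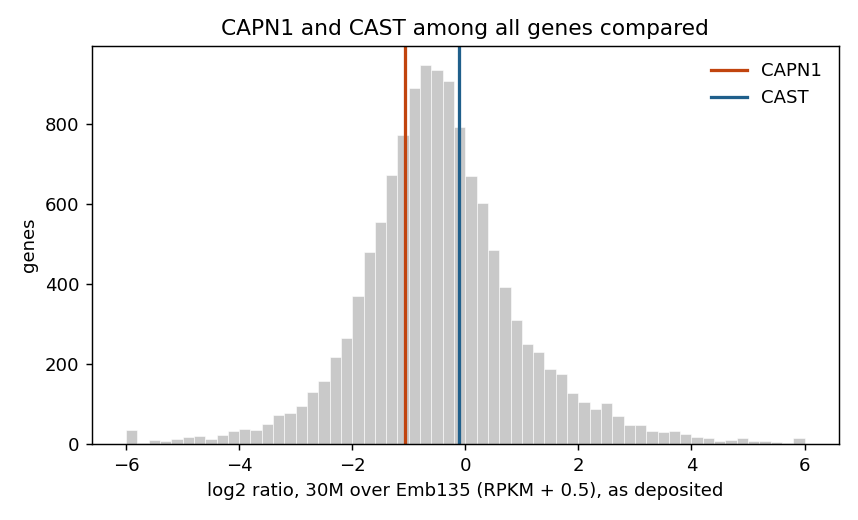
Number of genes (vertical axis) by log2 ratio of RPKM + 0.5, 30M over Emb135, as deposited (horizontal axis, bins of 0.2; genes beyond 6 in either direction are in the end bins), with lines at CAPN1 (-1.06) and CAST (-0.11). Each member lies near the centre of the distribution, CAPN1 below the median of -0.53 and CAST above it; with the 30M library rescaled by the median ratio CAST lies above 0.

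The balance of protease to inhibitor transcript was taken within each library as the RPKM of CAPN1 over that of CAST. It was 1.16 in Emb135 (exact interval 1.10 to 1.21) and 0.595 in 30M (0.560 to 0.632). In the adult library the inhibitor's level was thus 1.68 times that of the protease (1.58 to 1.79), and in the embryonic one 0.865 times (0.824 to 0.908). The ratio in 30M was 0.515 times that in Emb135, with an exact conditional interval of 0.476 to 0.556. That is a 1.94-fold larger ratio in Emb135, or a log2 change of -0.96 (-1.07 to -0.85). As deposited, the log2 ratios of the middle genes ran from -1.25 to 0.28, and both members lay inside that range. How many other pairs of genes change by as much was not counted. The change is therefore not shown to be particular to this pair. A factor on all 30M values cancels within the library, so rescaling by the median ratio left 0.595 and the change as they were. This is by construction and adds no evidence. Unlike the sign of the CAST difference, the change in the balance therefore does not depend on the scaling.

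In raw counts the pair shifted the same way, which is by construction, since each model had the same length in both tables. CAPN1 made up 2625 of the 7206 reads of the pair in Emb135, or 36.4% (35.3 to 37.6%). It made up 1404 of their 6166 reads in 30M, or 22.8% (21.7 to 23.8%). The reads of CAST differed by little between the libraries, at 4581 and 4762, while those of CAPN1 were fewer in the deeper library. On the log2 scale with the pseudocount, the stage difference of CAPN1 minus that of CAST was -0.95.

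Which of the pair was ahead in Emb135 depended on the gene models. CAST had more reads than CAPN1 at both stages, 1.75 times as many in Emb135 and 3.39 times as many in 30M. Its listed model is 2.02 times as long. The higher level of CAPN1 in Emb135 therefore holds only where the transcripts read differ in length by more than 1.75 times, and the lower level in 30M holds up to 3.39 times. RefSeq lists 16 transcripts for CAST and 3 for CAPN1 (table of assembly ARS-UCD2.0), and the deposited tables do not assign reads to isoforms. With reads divided by the part of the model that was covered, the ratio was 1.15 in Emb135 and 0.573 in 30M. The change between stages was then 2.01-fold. With no division by length it was again 1.94-fold, since each model had the same length in both tables. Whether the transcripts read were also of the same length at both stages was not tested.

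**Figure D4:**
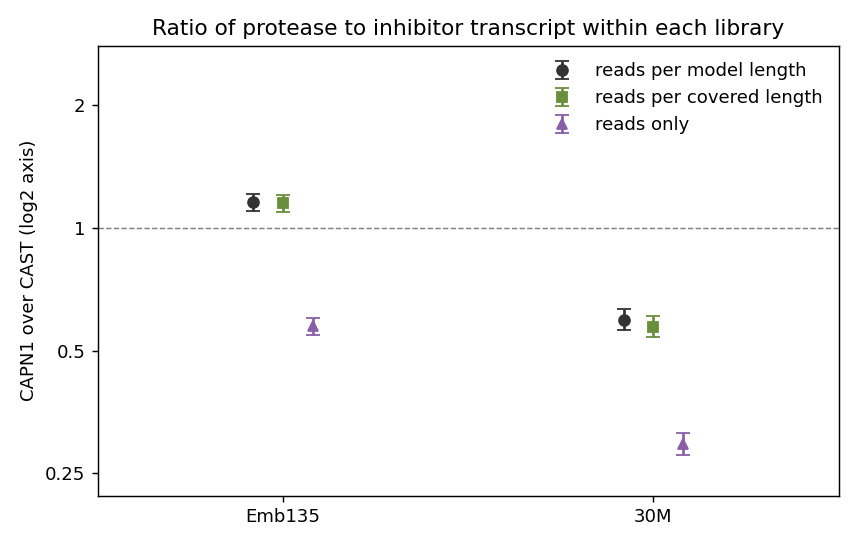
Ratio of CAPN1 to CAST (vertical axis, log2 scale) within the Emb135 and 30M libraries, with reads divided by the model length, by the covered length, or not divided; bars are exact 95% counting intervals and the dashed line marks equality. The ratio is lower in 30M by each measure, and it is above 1 in Emb135 only where length is taken into account (1.16 and 1.15, against 0.573 for reads alone). By construction, the change between stages is the same with model length and without division, since each model had the same length in both tables.

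Coverage, the part of a gene model that reads touched, in percent, was not used to choose the genes. This reading of the column is not exact for every gene, since 1 gene per library was listed slightly above 100%, so the unread lengths below are approximate. CAPN1 was covered at 99.87% in Emb135 and 99.82% in 30M, which leaves 3 nt and 4 nt of its model unread. Its mean depth was 105 reads per base in Emb135 and 56.0 in 30M, taking reads as 90 nt long. Nearly all of the CAPN1 model was thus read at both stages, and the covered part differed by 1 nt. CAST was covered at 99.32% in Emb135 and 96.07% in 30M. The unread part of the CAST model was 31 nt in Emb135 and 179 nt in 30M, although its mean depth was 90.6 in Emb135 and 94.2 in 30M. At such depths reads spread evenly would leave less than 1 nt unread in either gene.

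The difference of -3.25 percentage points in CAST was set beside that of other well-read genes. In 8457 genes with an expected coverage of at least 99% in both libraries, if reads fell evenly, coverage had a median of 97.6% in the embryonic library and 97.0% in the adult one. Of these genes 17.3%, or 1466, lost at least as many points in 30M as CAST. Among the 3261 of them with at least as many reads in 30M as in Emb135, as CAST had, 203 did, or 6.23%. CAST was above 76.5% of the 8457 genes in coverage in Emb135 and above 42.6% in 30M. CAPN1 was above 94.2% of them in Emb135 and above 93.4% in 30M. So the inhibitor's model was read less completely in the adult library at a slightly larger number of reads, while the unread part of the protease's model differed by 1 nt. Which stretch of CAST was unread is not given in the tables.

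**Figure D5:**
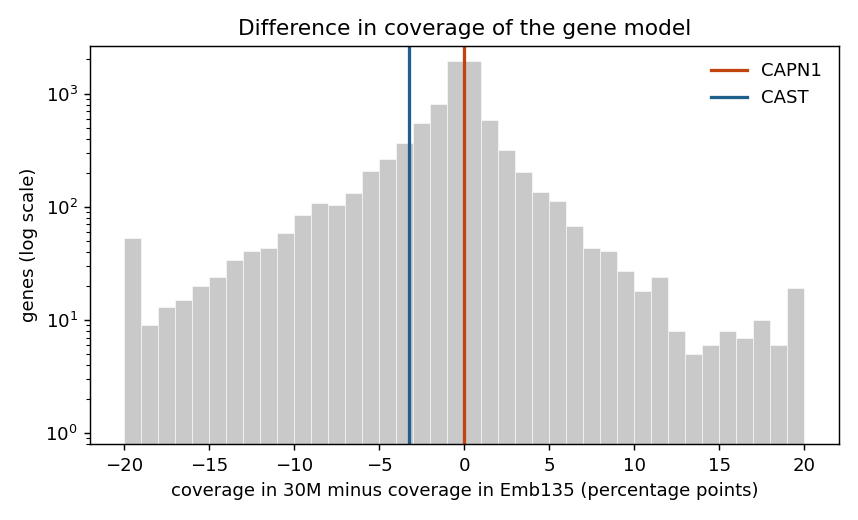
Number of genes (vertical axis, log scale) by coverage in 30M minus coverage in Emb135 in percentage points (horizontal axis, bins of 1 point; genes beyond 20 points are in the end bins), for the 8457 genes with an expected coverage of at least 99% in both libraries. CAPN1 lies at -0.05 and CAST at -3.25, where 17.3% of the genes lost as much or more.

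The genes with the most similar levels were found by distance over the 2 libraries on the log2(RPKM + 0.5) scale. The nearest to CAPN1 was ENSBTAG00000011883, with an RPKM of 66.9 in the embryonic library and 29.9 in the adult one, a distance of 0.067. The nearest to CAST was ENSBTAG00000010994, at 57.5 in Emb135 and 51.7 in 30M, a distance of 0.028. Within a distance of 0.25 there were 47 of the 16173 other genes around CAPN1 and 52 around CAST. How many neighbours other genes have at that distance was not counted. A likeness over 2 libraries is a weak one. Coverage, which was not part of the distance, differed between each member and its nearest gene. The gene nearest to CAST was covered at 85.9% in Emb135 and 94.5% in 30M, the opposite direction to CAST. The gene nearest to CAPN1 was covered at 99.9% in Emb135 and 97.6% in 30M, against 99.87% and 99.82% for CAPN1. The other calpains, the small regulatory subunit and the cathepsins, ubiquitin ligases and sarcomere targets listed for the pathway, 25 genes in all, were not analysed here because their identifiers could not be matched to names.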

How the data were processed

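One table per library was used, from muscle RNA pooled over 3 animals before poly(A) selection and Illumina sequencing, per the labels' protocols. Per the file headers, the authors deposited for each gene a raw count of unique reads, the model length, a coverage signal (taken as percent of the model touched by reads; genes with 1 read have 90 nt covered) and the RPKM. The authors made the RPKM by dividing the count by the model length and the library's total of unique reads, per the file headers, and recomputing it left a relative error of at most 2.2e-14. For aligner, counter, genome build and annotation, nothing is stated: not given in the sources used here. Only uniquely placed reads were counted, and reads of overlapping or antisense genes may be mixed. The reference table of 37063 genes holds Ensembl identifiers for 0 of them. No sequence is shown, since none was used here.

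With 1 library per stage nothing was tested. Ratios used a pseudocount of 0.5 on RPKM, calls the rule of size given above, and intervals the exact conditional methods of SciPy 1.17.1 with Python 3.11.15. PCR copies are not independent molecules, so intervals cover counting error only. Genes named were the 2 members and the nearest gene to each. Members, lists and alternatives were chosen with earlier results of these data known. Alternatives were other pseudocounts, minimum RPKM values, a 4-fold limit, 5 scalings, other lengths and random thinning of 30M. On data simulated over 16174 genes with counting noise alone, the rule called 100 of 100 genes changed 3-fold, 100 of 100 changed 8-fold and 3 of 12097 unchanged ones. Both simulated libraries shared 1 set of gene levels apart from the changed genes, which were changed by more than the 2-fold limit. The simulation therefore cannot show how the rule does near 2-fold, where CAPN1 lies, or under a shift between libraries.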

Additional observations from a re-analysis of the deposited data

How the results depend on the processing

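For CAPN1 the call of lower in 30M (log2 ratio -1.06) was lost with the median ratio (-0.59), the trimmed mean of log ratios (-0.52), the 75th percentile (-0.64), totals without the 50 most abundant genes (-0.69), TPM (-0.95) and a 4-fold limit (-1.06). It held with a pseudocount of 0.1 or 1, without a minimum RPKM or with one of 5, and with 30M thinned to the Emb135 total (-1.03). The ratio was below equality in all 12 settings, but of these only the 5 scalings could readily have changed its sign. For CAST (-0.11) the same scalings gave, in that order, 0.36, 0.43, 0.31, 0.26 and -0.0052. CAST was called in 0 of the 12 settings, though another minimum RPKM or a 4-fold limit could not have added a call. Without division by length the ratio of CAPN1 to CAST was 0.573 in Emb135 and 0.295 in 30M. The change of that ratio, 0.515 as 30M over Emb135, stayed inside its counting interval under the alternatives run, between 0.498 and 0.523. By construction the median ratio and no division by length left it as it was. The pseudocount and thinning could move it only slightly at these read counts. Genes that lost at least as much coverage as CAST went from 1466 of 8457 (17.3%) to 2260 of 10108 (22.4%) when an expected coverage of 90% was enough, and from 6.23% to 6.58% of those with at least as many reads in 30M. Over all genes, the 1665 higher calls became 2581 under the median ratio, 2743 under the trimmed mean and 698 at 4-fold, and the 4167 lower calls became 2714, 2535 and 1319. No paired analysis was possible because neither stage has a second library, and for the same reason no replicate was left out in turn.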
